A study of Mus musculus with 4 samples.

Results

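Cathepsins and cystatins are the proteases of the lysosome and the small proteins that inhibit them. The set described here holds 10 genes (Ctsb, Ctsc, Ctsd, Ctsh, Ctsk, Ctsl, Ctss, Ctsz, Cst3 and Cstb), picked by gene name among the non-control probes of a mouse expression array, with renamed genes traced through their RefSeq identifier. They were read by 14 of 41174 probes, and all 10 passed the filter on dim probes, among 20513 genes tested. RNA came from 4TO7, a BALB/cfC3H mouse mammary tumour cell line, as stable derivatives that carried pMSCV with the microRNA cluster miR-23b/27b/24 or the pMSCV-puro vector alone. Each group has 2 arrays, which the series calls transfection replicates. The labels do not say whether these are separately made lines or RNA preparations of 1 line, nor whether a line is 1 clone or a pool, so p-values and SEs measure only the spread between these arrays, which may be technical. Both groups carry the retroviral backbone. The cells' RNA carried Cy5, and Universal Mouse Reference RNA, pooled from 11 mouse cell lines, carried Cy3 on every array. A log2 ratio below is Cy5 over Cy3 for 1 probe on 1 array, and a log2 fold change is the mean of the miR-23b/27b/24 arrays minus that of the vector arrays.

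Most cathepsins are papain-like cysteine proteases, made as inactive precursors, sorted to lysosomes through the mannose 6-phosphate receptor and activated by cleavage in the acid compartment. Ctsd is an aspartic protease and stands outside that family. Cystatins block cysteine cathepsins by filling the active site cleft, and in tumours the enzymes are also known from outside the cell, where they can cut matrix proteins. The overexpressed cluster encodes miR-23b, miR-27b and miR-24, microRNAs that repress transcripts through pairing of their seed, bases 2 to 8 of the mature strand. The mature 3p strands of miR-27b and miR-24 are shown because they belong to the cluster overexpressed in the tested line. They come from RefSeq on GRCm38.p6, plus strand, with the seed in capitals. The 3p strand of miR-23b is not shown, because no mature entry for it was found in the sequences used here. Target sites in the members' transcripts were not searched.
mmu-miR-27b-3p, chr13:63300760-63300780: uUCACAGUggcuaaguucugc
mmu-miR-24-3p, chr13:63301251-63301272: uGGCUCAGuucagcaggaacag

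On each of the 4 arrays all 14 probes were well above background in Cy5 and in Cy3. None was saturated in Cy5 or marked as an outlier spot, and saturation in Cy3 was not checked. Over all probes that passed the filter, the correlation of log2 ratios was 0.949 for the arrays with the cluster. It was 0.886 for the vector pair, which lay further apart. Between 69.9% and 74.8% of all probes were well above background in Cy5 on an array. Of 8 epithelial markers taken to check the cell type, 5 fell in miR-23b/27b/24 cells (Krt7, Epcam, Krt19, Krt14 and Cdh1) and none rose. Over all genes 4.66% fell and 4.78% rose. Of the other 3, Krt8, a keratin of simple epithelia, had log2 ratios of 1.15 and 1.09 with the cluster and of 1.28 and 0.37 in vector cells. Krt18 had 0.304 and 0.902 with the cluster, against 2.365 and 1.647 in vector cells. The groups did not overlap for Krt18, but it did not pass (limma adjusted p = 0.0647). Krt5 had a log2 fold change of -0.01. These markers were named after their values were seen. The arrays are bulk samples, in which fewer cells of a type and less RNA per cell cannot be told apart. With so few arrays the precision of each value is limited.

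In cells with the cluster, 2 of the 10 genes fell and none passed the test as higher. Ctsc, the dipeptidyl peptidase that trims pairs of residues from the amino end of proteins and activates granule serine proteases, was 8.59-fold lower, and Ctsd, the main aspartic protease of the lysosome, was 1.98-fold lower. The other 8, among them the broadly expressed Ctsb, Ctsl and Cstb, did not pass. Across the array 9.43% of genes passed in either direction (adjusted p under 0.05, limma with Benjamini-Hochberg adjustment over all genes), and 4.66% passed as lower. At an unadjusted p under 0.05, limma gave 2 members higher and 2 lower, against 2990 higher and 2696 lower of all 20513 genes. The median log2 fold change of the 10 genes was 0.04, against -0.03 over all genes tested. For 7 of the 10 genes both arrays of one line lay on the same side of both arrays of the other, against 59.8% of all genes. With every local background as measured, 3.1% of all genes passed and the same 2 members were called.

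**Figure D1:**
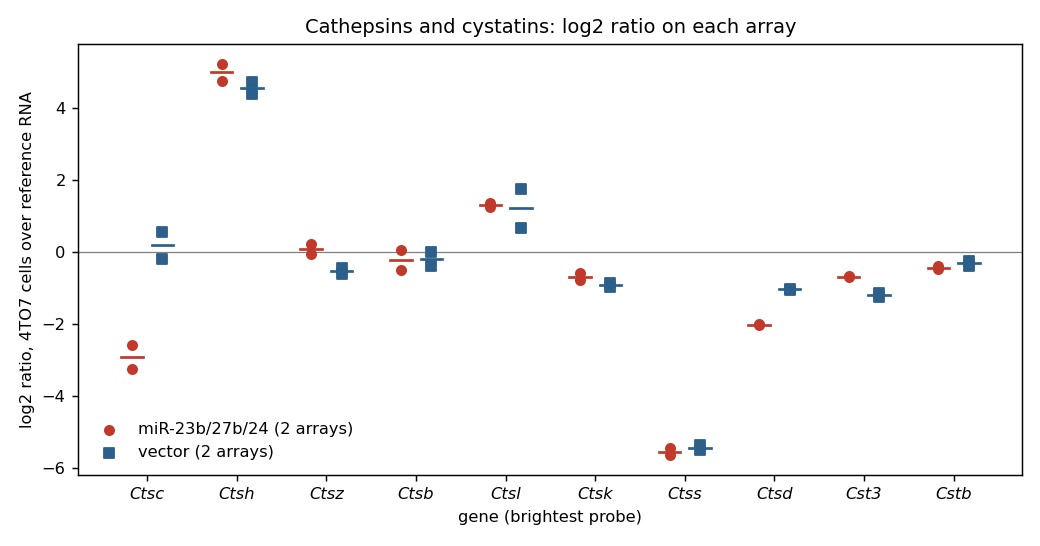
Log2 ratio of 4TO7 cells over reference RNA (vertical axis) for each of the 10 genes, by its brightest probe. Red circles are the 2 miR-23b/27b/24 arrays and blue squares the 2 vector arrays, with a line at each mean; Ctsc shows the widest gap between the groups, and Ctss sits more than 5 log2 units below the reference in both.

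The exopeptidases of the set are Ctsc, Ctsh and Ctsz. Ctsc, read by a probe at chr7:84246990-84247049 (mm7, plus strand), had log2 ratios of -2.60 and -3.24 in miR-23b/27b/24 cells, against 0.56 and -0.19 in vector cells. Each array with the cluster lay far below both vector arrays, which were near the level of the reference mix. The log2 fold change was -3.10 ± 0.34 (SE, n = 2 each, 95% confidence interval, CI, -3.98 to -2.23, limma adjusted p = 0.0131). The scanner's processed Cy5 signal at this probe was 213.5 and 70.4 in miR-23b/27b/24 cells, against 2604 and 1939 in vector cells. The Cy3 signal of the reference stayed between 1511 and 2039 on all arrays, so the gap lay in the channel of the cells. The Cy5 signal was near background on the arrays with the cluster, and the size changed with the processing. It was 8.04-fold with every local background as measured and 10.5-fold with no background correction. With the scanner's own processed signals and loess it was 17.1-fold. It was 16.2-fold with the scanner's own log ratio and with the authors' deposited table of log2 ratios. Ctsc has a single probe here, so the value has no check by another probe.

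Ctsh, an aminopeptidase, stood furthest above the reference of the 10 genes. Its log2 ratios were 4.74 and 5.23 in miR-23b/27b/24 cells and 4.73 and 4.38 in vector cells. The lowest array with the cluster was nearly level with the highest vector array, and the log2 fold change of 0.43 ± 0.23 did not pass (SE, n = 2 each, limma adjusted p = 0.303). The processed Cy5 signal was 67712 and 92643 with the cluster, against 62348 and 42744 without it. In both lines its ratio to the reference mix was far above that of any other member.

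Ctsz, also called cathepsin X, is a carboxypeptidase that carries an integrin-binding motif in its propeptide. Its brighter probe, at chr2:174172121-174172180 (mm7, minus strand), gave -0.05 and 0.22 in miR-23b/27b/24 cells, against -0.60 and -0.45 in vector cells. The other probe gave 0.23 and 0.53 with the cluster, against -0.52 and -0.33 without it. At both probes the groups did not overlap and the cluster's arrays were higher. The brighter probe differed by 0.61 ± 0.15 on the log2 scale (SE, n = 2 each, 95% CI 0.22 to 1.01), which missed the threshold in the gene-level fit (limma adjusted p = 0.0763). The other probe differed by 0.80 ± 0.16 and passed in a fit over all kept probes (SE, n = 2 each, limma adjusted p = 0.0468), in which 9.88% of probes passed. In that fit the brighter Ctsz probe did not pass (adjusted p = 0.0721).

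**Figure D2:**
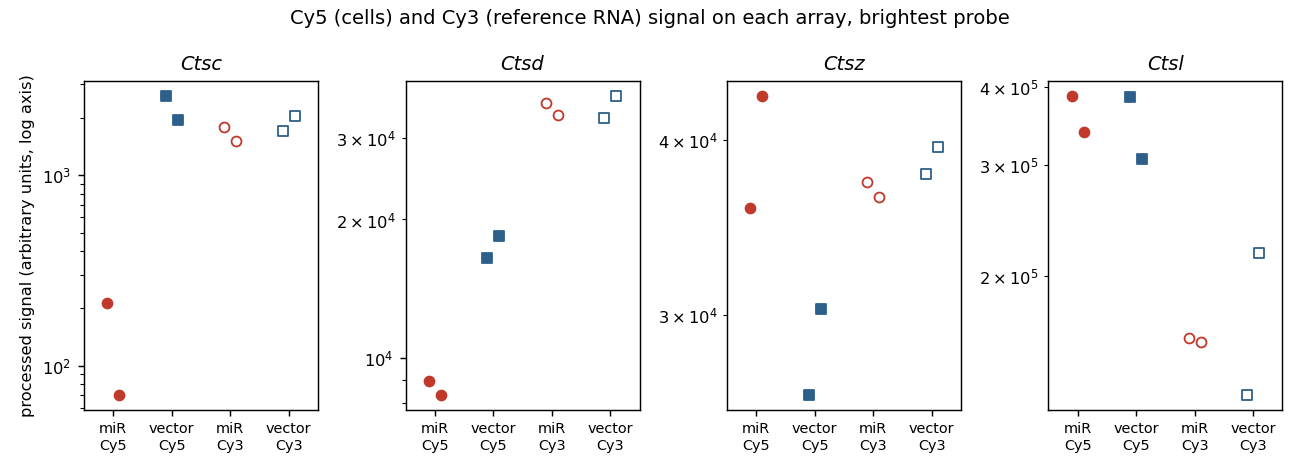
Processed signal in arbitrary units on log axes, each panel with its own range, for the brightest probe of Ctsc, Ctsd, Ctsz and Ctsl. Filled symbols are Cy5 from the cells, open symbols Cy3 from the reference RNA, red circles miR-23b/27b/24 and blue squares vector; for Ctsc and Ctsd the Cy5 symbols separate while the Cy3 symbols do not, and for Ctsl the reference itself differs between the vector arrays.

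Among the endopeptidases of the papain family no difference was detected. Ctsb, which also acts as a carboxydipeptidase, had log2 ratios of 0.06 and -0.49 in miR-23b/27b/24 cells and of 0.01 and -0.40 in vector cells, so that the arrays within each line differed more than the lines. Its log2 fold change was -0.02 ± 0.25 (SE, n = 2 each, 95% CI -0.66 to 0.62, limma adjusted p = 0.968). A dimmer Ctsb probe gave -0.23. Ctsl, a strong endopeptidase of the lysosome, had log2 ratios of 1.36 and 1.24 with the cluster, against 1.75 and 0.67 without it. The vector arrays lay on either side of the others. Their gap of 1.08 on the log2 scale was made of 0.32 in Cy5 and -0.75 in the Cy3 channel, which held the same reference RNA on every array. Ctsl differed between the lines by 0.10 ± 0.37 (SE, n = 2 each, 95% CI -0.86 to 1.05, limma adjusted p = 0.900), by 0.64 without vector replicate 1 and by -0.44 without vector replicate 2. No direction can be given for it.

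Ctsk and Ctss are known best from other cells, Ctsk as the collagen-degrading enzyme of osteoclasts and Ctss as the protease that trims the invariant chain in antigen-presenting cells. Ctsk was dim, with processed Cy5 signals of 52.8 and 67.8 in miR-23b/27b/24 cells and of 46.0 and 57.4 in vector cells. Its log2 ratios were -0.79 and -0.59 with the cluster and -0.96 and -0.87 without it, a log2 fold change of 0.23 ± 0.14 (SE, n = 2 each, limma adjusted p = 0.350). With every local background as measured the sign turned, to -0.34. Ctss was far below the reference mix in both lines, at -5.64 and -5.45 with the cluster and -5.49 and -5.37 without it. Its log2 fold change was -0.11 ± 0.14 (SE, n = 2 each, 95% CI -0.47 to 0.24, limma adjusted p = 0.652). The reference signal at the Ctss probe lay between 24691 and 27493, and its Cy5 signal between 412.5 and 551.6.

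Ctsd gave the tightest values of the set. The log2 ratios of its brighter probe, at chr7:138803337-138803396 (mm7, minus strand), were -2.004 and -2.027 in miR-23b/27b/24 cells, against -1.02 and -1.04 in vector cells. The arrays of each line were nearly identical and the lines did not overlap. The log2 fold change was -0.99 ± 0.12 (SE, n = 2 each, 95% CI -1.29 to -0.68, limma adjusted p = 0.0159). Processed Cy5 was 8950 and 8340 with the cluster, against 16492 and 18442 without it, while the reference stayed between 33104 and 37032. The dimmer probe gave -1.20 and -1.18 in miR-23b/27b/24 cells, against -0.81 and -0.56 in vector cells, again without overlap. It differed by -0.51 ± 0.14, a 1.42-fold fall in size that missed the threshold in the probe-level fit (SE, n = 2 each, limma adjusted p = 0.0926). With the mean of both probes the log2 fold change of Ctsd was -0.75, still past the threshold (adjusted p = 0.0276).

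The probes whose reading differed from that of their gene's brightest probe are shown with their position on mm7, the build in the file headers. The Ctsd probe covers 154 bases of the genome with 60 bases of sequence, so it joins separated stretches of the gene, and it lies on the minus strand. The Ctsz probe, also on the minus strand, is the one that passed at the level of probes.
Ctsd other probe, chr7:138804003-138804156: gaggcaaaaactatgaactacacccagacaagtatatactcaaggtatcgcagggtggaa
Ctsz other probe, chr2:174172977-174173036: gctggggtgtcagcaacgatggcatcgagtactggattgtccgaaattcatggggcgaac

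**Figure D3:**
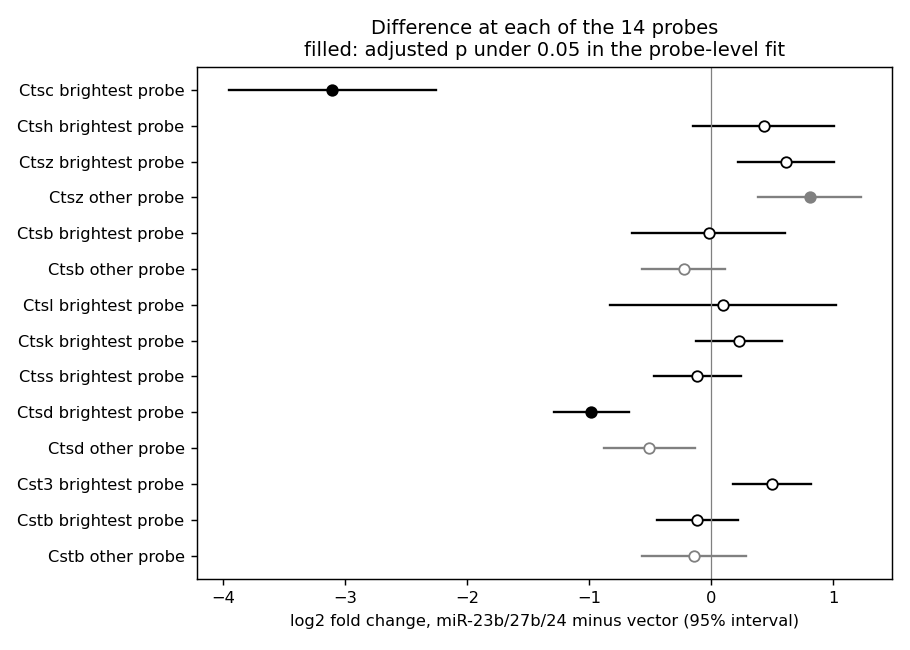
Log2 fold change (horizontal axis, points) with its 95% interval (bars) for each of the 14 probes, black for the brightest probe of a gene and grey for its other probe, with filled points where the adjusted p was under 0.05 in the probe-level fit. The Ctsc probe, the brighter Ctsd probe and the other Ctsz probe are filled; both probes lie on the same side of 0 for each of the 4 genes that have a pair.

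Neither inhibitor passed the test. Cst3 encodes cystatin C, the secreted inhibitor of cysteine cathepsins. It had log2 ratios of -0.71 and -0.68 in miR-23b/27b/24 cells, against -1.13 and -1.24 in vector cells. The lines did not overlap, and the log2 fold change of 0.49 ± 0.12 missed the threshold (SE, n = 2 each, 95% CI 0.18 to 0.81, limma adjusted p = 0.0750). In Cy5 alone it was 0.25. Without vector replicate 1 it was 0.55. Cstb encodes stefin B, an inhibitor inside the cell. Its brighter probe read -0.40 and -0.47 with the cluster and -0.24 and -0.40 without it, a log2 fold change of -0.11 ± 0.13 (SE, n = 2 each, 95% CI -0.45 to 0.22, limma adjusted p = 0.625), and its other probe gave -0.14. An interval that includes 0 does not show that the lines had the same level.

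As a ratio to the reference mix, the order with the cluster ran from Ctsh at 4.98 through Ctsl at 1.304, Ctsz at 0.09, Ctsb at -0.22, Cstb at -0.43, Ctsk at -0.69, Cst3 at -0.69, Ctsd at -2.02 and Ctsc at -2.92 to Ctss at -5.55. The arrays of Ctsb overlapped with those of Ctsz and of Cstb, those of Ctsk with Cst3, and no other neighbours did. In the vector line the order began with Ctsh at 4.56 and ended with Ctss at -5.43, Ctsc was the third, at 0.19, and Ctsz the sixth, at -0.53; there Ctsb overlapped with Ctsc and with Cstb, and no other neighbours did. These are ratios to a mix and not levels, since probes differ in brightness for the same amount of RNA.

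Cst3 and Ctsz both lie on the far part of chromosome 2, at 148612802 and 174172121 on mm7. Of 448 tested genes there from 140 Mb on, 69 rose and 5 fell, so 15.4% rose, against 4.78% of all genes, and their median log2 fold change was 0.25. Within 1 Mb of Ctsz, by the gene order of RefSeq, 10 of 12 other genes had a positive log2 fold change, with a median of 0.43 and 1 gene that rose. Within 1 Mb of Cst3, 4 of 10 did, with a median of -0.07 and 1 gene that rose. The part of this stretch in the values of Ctsz and Cst3 was not tested. Within 1 Mb of Ctsd, on chromosome 7, the median over 38 genes was -0.03, and 4 rose and 2 fell, against 4.78% and 4.66% of all genes. Around Ctsc, on the same chromosome, 2 genes were tested and none passed.

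The promoters of the genes that fell are shown because a group of lysosomal genes is known to be driven by Tfeb and its relatives, transcription factors that bind the palindromic box CACGTG. RefSeq promoters on GRCm38.p6 (250 bases before to 50 after the start site) matched 7 of the 10 genes, all but Ctsb, Ctsh and Cstb. The letters CACGTG, the same on both strands and in capitals here, occur in 2 of these 7, the promoters of Ctsd and Ctsl, and in 7.15% of all 32851 promoters in the table. In Ctsd they start at -98 and -245 from the start site, in Ctsl at -236, and the Ctsc window does not hold them. A match is a description of the letters and not a bound site.
Ctsd, minus strand, chr7:142387778-142388077: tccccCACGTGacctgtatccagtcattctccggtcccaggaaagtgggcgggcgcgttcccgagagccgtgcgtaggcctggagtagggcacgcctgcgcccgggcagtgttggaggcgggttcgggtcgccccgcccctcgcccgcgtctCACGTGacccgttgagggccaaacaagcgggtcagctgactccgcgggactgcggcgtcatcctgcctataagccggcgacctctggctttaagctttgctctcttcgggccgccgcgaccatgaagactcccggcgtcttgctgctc
Ctsc, plus strand, chr7:88277835-88278134: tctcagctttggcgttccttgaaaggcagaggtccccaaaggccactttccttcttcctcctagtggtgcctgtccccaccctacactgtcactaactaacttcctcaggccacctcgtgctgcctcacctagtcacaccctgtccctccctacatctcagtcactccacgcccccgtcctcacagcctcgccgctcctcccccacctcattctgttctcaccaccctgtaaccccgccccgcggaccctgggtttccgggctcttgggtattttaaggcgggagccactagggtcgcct

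The transcripts of Tfeb and its relatives did not pass, and other factors that can bind this box are not described here. Tfeb had a log2 fold change of -0.06 ± 0.13, Tfe3 of -0.38 ± 0.13, Tfec of -0.15 ± 0.12 and Mitf of 0.30 ± 0.19 (SE, n = 2 each, limma adjusted p between 0.152 and 0.814). They belong to a list of 29 lysosome regulators and membrane genes, all measured, with a median of -0.15. Of these 29, 2 fell and none rose in limma, against 4.66% and 4.78% over all genes. At an unadjusted p under 0.05 limma gave 6 lower and 0 higher, against 2696 lower and 2990 higher of 20513 genes. Cd68, a lysosomal glycoprotein best known from macrophages, was 3.21-fold lower, with log2 ratios of -1.90 and -2.08 in miR-23b/27b/24 cells, against -0.25 and -0.37 in vector cells. Npc2, which hands cholesterol out of the lysosome, was 1.97-fold lower.

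Of 13 other lysosomal peptidases on the array Cpvl was too dim to be tested, and of the other 12, 2 rose and 2 fell, and their median was -0.03; over all genes 4.78% rose and 4.66% fell. Cpq, a secreted and lysosomal carboxypeptidase, was 7.72-fold higher, with log2 ratios of -0.43 and -0.27 in miR-23b/27b/24 cells, against -3.45 and -3.15 in vector cells; its other kept probe gave a log2 fold change of 0.02. Ctso, a papain-like cathepsin, was 1.52-fold higher and passed narrowly (adjusted p = 0.0472). It missed the threshold in 13 of 16 alternative settings. Lgmn, the asparagine-specific protease legumain that also processes cathepsins to their mature chains, was 2.50-fold lower, at -0.53 and -0.63 with the cluster, against 0.73 and 0.75 without it. Dpp7, a dipeptidyl peptidase that cuts after proline, was 2.11-fold lower by its brighter probe, and -0.35 in log2 by the other.

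Of 15 measured genes among other cystatins, stefins and protease inhibitors, 1 rose and 3 fell, against 4.78% and 4.66% over all genes. The median of the 15 was 0.13. The gene that rose was Fetub, which encodes fetuin-B, a member of the cystatin superfamily known as an inhibitor of an egg protease. It was 14.1-fold higher, at 2.29 and 2.13 with the cluster, against -1.26 and -1.97 without it. The genes that fell encode serpins, inhibitors of serine proteases. Serpinb6b was 4.52-fold lower and Serpinb6a 3.21-fold lower, and since these paralogs are alike their probes may read more than 1 gene; another Serpinb6a probe gave -0.13 in log2. Serpinb9, an inhibitor of granzyme B, was 1.57-fold lower, missed the threshold in 7 of 16 settings and had a log2 fold change of -1.48 by the scanner's own log ratio. The other 12 of 27 such genes on the array were too dim to be tested. Cst6, another secreted cystatin, had log2 ratios of 1.10 and 1.95 in miR-23b/27b/24 cells and of 0.56 and -0.15 in vector cells and did not pass (adjusted p = 0.0965); it was named after its values were seen.

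Of 22 genes for the delivery of enzymes to the lysosome, 2 rose and 2 fell, and the median was -0.13. Among those that fell, Ap1m2 passed the filter on dim probes through the vector line alone. Nagpa, the enzyme that uncovers the mannose 6-phosphate tag, was 2.51-fold higher, and Gga2, an adaptor that sorts the tagged enzymes at the Golgi, was 1.76-fold higher. Ap1m2, the epithelial subunit of the AP-1 adaptor, was not well above background on either array with the cluster and entered the fit through the vector arrays, where it was. Its fitted log2 fold change was -2.03 (limma adjusted p = 0.00853), and with every local background as measured it was -1.07 and did not pass (adjusted p = 0.245), so no fold is given for it. Vps26a, a subunit of the retromer coat that returns the receptors, was 1.55-fold lower and missed the threshold in 10 of 16 settings. The receptors themselves, M6pr and Igf2r, named after their values were seen, had log2 fold changes of -0.14 and -0.30 and did not pass. Over the 4 lists together 5 of 78 genes rose and 9 fell, Ap1m2 among them, against 4.78% higher and 4.66% lower over all genes. With every local background as measured 6 of these 14 calls were left, and Cpq, Dpp7, Fetub, Gga2, Ap1m2, Ctso, Serpinb9 and Vps26a missed (adjusted p between 0.0509 and 0.245). When replicate 1 or replicate 2 of the miR-23b/27b/24 line was left out, the calls for Cpq, Fetub and Serpinb6b were left in each fit, and the other 11 missed.

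**Figure D4:**
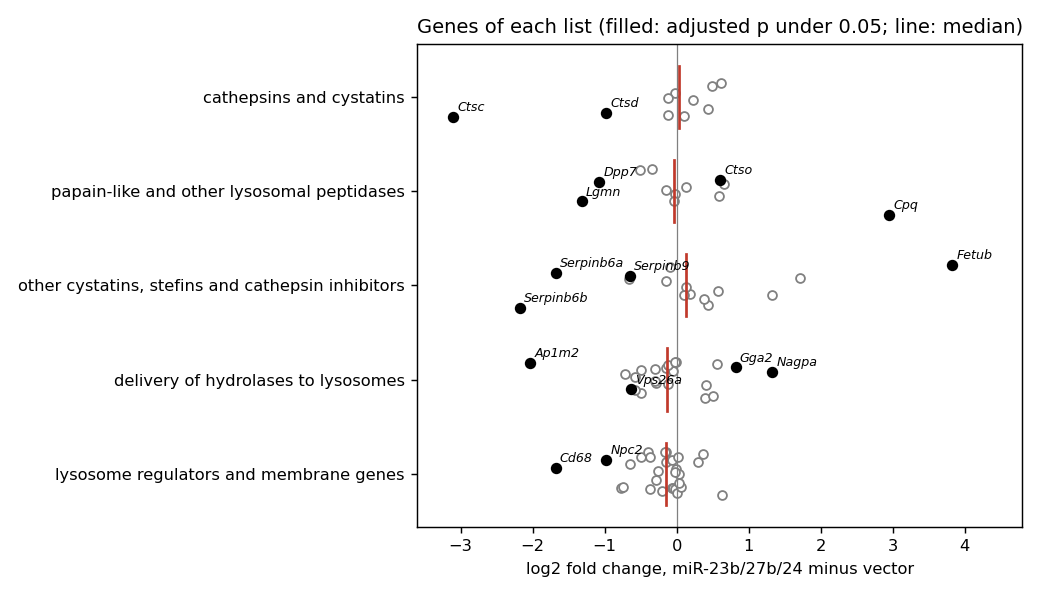
Log2 fold change (horizontal axis) of each measured gene in the set of 10 and in 4 lists of lysosomal and inhibitor genes, with random vertical spread. Filled, named points had an adjusted p under 0.05 and red lines are medians; every median lies between -0.15 and 0.13.

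Markers of cells rich in Ctss, Ctsk and Ctsc were read beside these results. Of 11 measured macrophage markers none rose and 1 fell, Cd68, which the lysosome list holds too. Ptprc, the pan-leukocyte antigen, had log2 ratios of -5.75 and -5.75 in miR-23b/27b/24 cells and of -5.82 and -5.72 in vector cells. The summed processed Cy5 of the macrophage list without Cd68 was 11470 and 9254 with the cluster, against 8994 and 8561 without it. Such a sum weighs bright genes most. Cd14, the brightest of the list and named after its values were seen, had a log2 fold change of 0.70 and did not pass (limma adjusted p = 0.200). The median log2 fold change of the 11 markers was -0.03, and over all genes it was -0.03. Itgam and Mrc1 were too dim to be tested, each above background in Cy5 on 1 array, and the other 11 of 13 were above it on all arrays. Of 6 osteoclast markers 1 rose, Nfatc1, and none fell. Over all genes 4.78% rose and 4.66% fell. None of 7 lymphocyte, 8 fibroblast and 3 measured endothelial markers passed in limma. At an unadjusted p under 0.05 limma gave 1, 2 and 0, all higher, against 2990 higher of 20513 genes. The summed processed Cy5 of the 8 epithelial markers was lower with the cluster, at 204100 and 228600 in miR-23b/27b/24 cells, against 594500 and 499100 in vector cells. The part of these markers in the values of Ctsc and Ctsd was not tested.

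**Figure D5:**
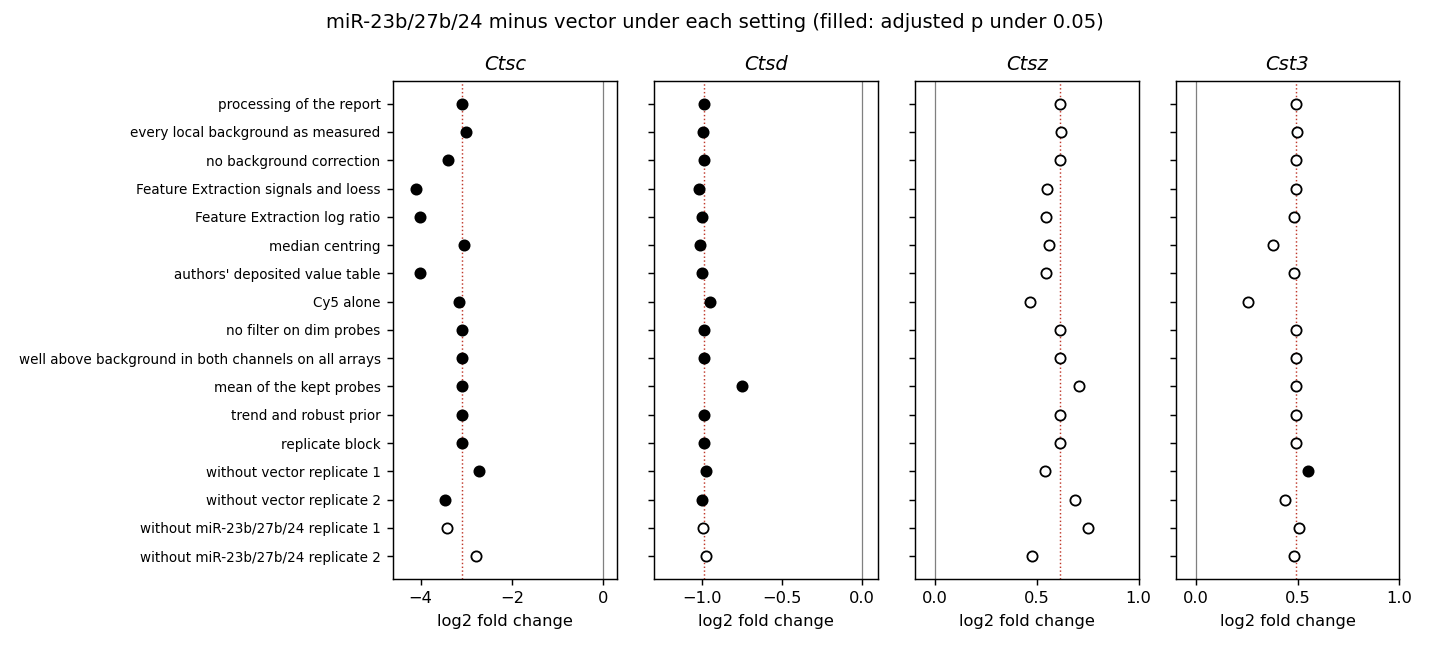
Log2 fold change (horizontal axis, each panel with its own range) of Ctsc, Ctsd, Ctsz and Cst3 under the processing used here (top, dotted red line) and under each alternative. Filled points had an adjusted p under 0.05; Ctsc and Ctsd stay below 0 throughout and are open where a miR-23b/27b/24 array is left out, and Ctsz and Cst3 stay above 0.

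The calls for Ctsc and Ctsd held with either treatment of the local background and with either normalization, and rested on having both miR-23b/27b/24 arrays. Without replicate 1 of that line Ctsc was 10.7-fold lower (adjusted p = 0.0557) and without replicate 2 it was 6.88-fold lower (adjusted p = 0.0718); for Ctsd the log2 fold change was -0.997 and -0.974 in these fits (adjusted p = 0.146 and 0.129). Over all genes the fits without replicate 1 or 2 of that line called 222 and 240 genes, against 1935 with all arrays. Without vector replicate 1 the log2 fold change was 0.64 for Ctsl and 0.55 for Cst3, and without vector replicate 2 it was -0.44 and 0.44.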

How the data were processed

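The deposited scanner values come from Agilent Feature Extraction 9.5.3.1, per the file headers: for each channel the mean, local background and processed (background-subtracted and dye-normalized) intensity, flags for each spot, and a log10 ratio of red, Cy5, over green, Cy3. The authors' deposited value table holds log2 ratios; it equalled the Feature Extraction ratio, less the probe's own median of 4 arrays, within 0.001 for 87.6% to 88.1% of values (column medians 0.0221 and -0.0149 for miR-23b/27b/24 and 0.0133 and -0.0172 for vector), and no source used here names its program. All arrays came from 1 slide and 1 scan, with no dye swap.

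In R 4.3.3 with limma 3.58.1, outlying local backgrounds were replaced by the array's median, normexp (offset 50) corrected the background, and each array was normalized by loess with control spots at weight 0. A probe was kept when the scanner flagged Cy5 as well above background on both arrays of either line (30077), the brightest probe stood for a gene, and lmFit with eBayes compared the lines (residual degrees of freedom 2, prior 2.83), with Benjamini-Hochberg adjustment over 20513 genes. Names came from a RefSeq table of GRCm38.p6, through an accession for 22951 of 41174 probes, a symbol for 6659 and a synonym for 3109, and 8455 kept the name in the files. The members, lists and tests were chosen with earlier results of these data known. Text names every member, up to 4 called genes with the largest change per list, and exceptions as stated. Alternatives changed the background step, the normalization, the filter, the choice of probe or the moderation, added a replicate block, or left out 1 array.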

Additional observations from a re-analysis of the deposited data

How the results depend on the processing

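Of the 10 genes, 2 were called under each of the background, normalization, filter, probe-mean and moderation alternatives and with a replicate block. The fit at the level of probes called 3 by any probe, an adjusted p under 0.1 gave 4 (2 higher and 2 lower), and leaving out 1 array gave between 0 and 4. No share of all genes is given for an adjusted p under 0.1 or for calls by any probe. These counts therefore do not show whether members passed more often than other genes. A gene with 2 probes has 2 chances to be called by any probe, and 9.88% of all kept probes passed in that fit. The fits with 0 calls were those without miR-23b/27b/24 replicate 1 or 2. The remaining array of that line is then taken to spread as much as those of the vector line. Of the 78 list genes, 14 were called, and 6 with every local background as measured, 9 with median centring and between 3 and 22 with 1 array left out. Over all genes these counts were 635, 1263 and between 222 and 4589, against 1935. Among the 10 genes, signs turned only for ones that were not called. Ctsk had -0.34 with every local background as measured, Ctsl -0.15 with median centring and -0.44 without vector replicate 2, Ctsl between -0.44 and 0.64 over the fits with 1 array left out, and Ctsb between -0.29 and 0.25 over them, with 0.18 without vector replicate 1 and 0.25 without miR-23b/27b/24 replicate 2; the cause was not tested. Replicate numbers are shared between groups, but the deviations of same-numbered arrays correlated at only 0.0464 across genes, so nothing shows that they pair the arrays. The replicate block called 2 members, 12 list genes and 1763 genes in all. The array has 1 or 2 probes for each of the 10 genes, and the Cy5 signals of Ctsc with the cluster and of Ctsk in both lines lie near background, which limits the size of their folds.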
